A study of Mus musculus with 8 samples.

Results

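The Notch receptors, their ligands, the DNA-binding effector Rbpj and the target Hes1 were examined in mouse colon that did or did not express human Siglec-XII. The 10 genes (Notch1, Notch2, Notch3, Notch4, Dll1, Dll4, Jag1, Jag2, Rbpj and Hes1) were found by their symbols among 52143 genes, and each had 1 row. Siglec-XII samples came from SIGLEC12-Villin1-Cre-ERT mice, which carry human SIGLEC12 knocked in at ROSA26 behind a floxed EGFP cassette, and Control samples came from Villin1-Cre-ERT mice, which carry the Cre recombinase without the knockin. Both groups were female, started tamoxifen at 8 weeks of age, received it for 5 days at 10 mg/ml, and gave their colons 7 days after the last dose, on day 12. Villin1 drives Cre in intestinal epithelium, so the transgene is limited to that layer, whereas RNA came from distal colon tissue with all of its cell types. The labels list 4 Control and 4 Siglec-XII samples while the design text speaks of 3 mice per condition, and nothing in the labels ties a sample to an animal, so P values measure the spread between samples, which may be technical. No row was found for SIGLEC12, EGFP or Cre, which left no transgene to test the labels with. The deposited unit was log2(TPM + 1), in which TPM is a gene's length-corrected portion of all transcripts in a sample. TPM keeps no sequencing depth, and the depth behind each value is unknown.

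Notch signaling passes between touching cells. A ligand of the Delta or Jagged family on one cell pulls on a Notch receptor on its neighbor, the receptor is cut outside and then inside the membrane, and the freed intracellular domain joins Rbpj on DNA and switches on targets such as Hes1. In the intestinal crypt, Notch1 and Notch2 with Dll1 and Dll4 keep progenitors dividing, and Hes1 represses Atoh1, which otherwise commits a cell to the secretory lineage. Notch3 is best known from vascular smooth muscle, Notch4 and Dll4 from endothelium, and Notch3, Jag1 and Jag2 are also used in stratified squamous epithelium.

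Markers of colon epithelium were present in every sample. The 8 epithelial markers summed to between 9130 and 13400 TPM, with Krt8, a keratin of simple epithelium, as the most abundant at a mean of 4550 TPM. The absorptive colonocyte list was led by carbonic anhydrase 1 (Car1, mean 2540 TPM) and the goblet cell list by the lectin Zg16 (mean 5680 TPM). No marker in any cell type list was at 0 in every sample. Genes of stratified squamous epithelium, described below, summed to 23100 TPM in Control 1 and 13400 TPM in Control 4, above the 9390 and 10400 TPM of the epithelial markers in those samples.

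Among the members, Hes1 stood far above the rest in the Control samples. Its level was 92.1 ± 10.4 TPM (SD, n = 4), at or above the level of 89.5% of the 13164 genes tested. Rbpj followed at 9.92 ± 1.39 TPM and Dll1 at 7.81 ± 2.35 TPM. Each step, from Hes1 to Rbpj and from Rbpj to Dll1, had the same sign in all 4 Control samples and exceeded its SD. Below Dll1 came Notch1 (5.71 ± 1.03 TPM), Jag1 (5.33 ± 2.56), Dll4 (4.63 ± 1.06), Jag2 (2.90 ± 1.61), Notch3 (2.84 ± 2.61), Notch4 (2.49 ± 0.609) and Notch2 (2.46 ± 0.929), and no neighbors in this part of the order differed beyond their spread. All 10 members passed the filter, which asked for 1 TPM or more in 4 or more samples. At a filter of 5 TPM, 3 members (Dll1, Rbpj and Hes1) remained.

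**Figure D1:**
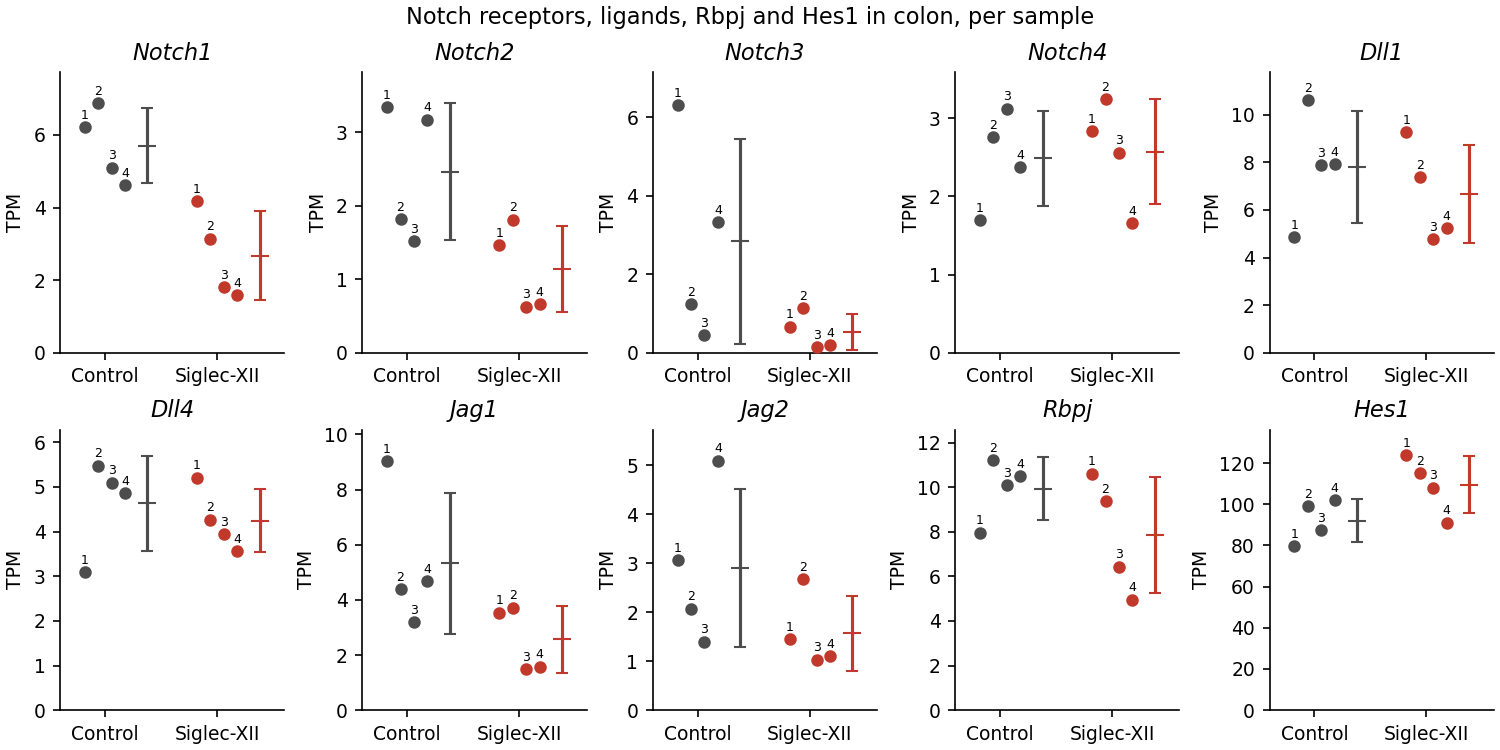
TPM of each of the 10 members (vertical axes, from 0) in 4 Control samples (grey) and 4 Siglec-XII samples (red), numbered by replicate; bars give the mean and SD. Notch1 is the member whose groups do not overlap, Hes1 is highest in Siglec-XII samples 1 to 3, and Siglec-XII samples 3 and 4 are lowest for Notch1, Notch2, Notch3, Jag1, Jag2 and Rbpj.

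The comparison of Siglec-XII with Control asks what epithelial SIGLEC12 does to the colon transcriptome before any carcinogen. Of the 13164 genes tested with limma, 5 (0.0380%) passed an adjusted P of 0.05, and all were higher in Siglec-XII (Gm13394, Gm45063, Prh1, Gm7336 and Esr1, named after their values were seen). Esr1, the estrogen receptor gene, measured 4.49, 2.22, 1.05 and 3.12 TPM in Control and 25.4, 26.6, 17.8 and 23.2 TPM in Siglec-XII samples 1 to 4. The ERT part of Cre-ERT derives from an estrogen receptor and both groups are labelled as carrying it, and whether transgene reads were counted under Esr1 was not tested. None of the 10 members passed. At an unadjusted limma P of 0.05, 4 of 10 members were lower (Notch1, Notch2, Notch3 and Jag1) beside 7.67% of all genes, and 0 were higher beside 1.19%. The number lower was 1 without Control 1, Control 4, Siglec-XII 3 or Siglec-XII 4, beside 7.51%, 3.91%, 2.93% and 3.18% of all genes. Without Siglec-XII 4 Hes1 was higher, beside 1.09%. The median gene was itself shifted by -0.15 log2 units, and 78.1% of genes tested had a difference below 0. The median difference over the members was -0.45, and 7 of 10 members lay below the median gene. When samples were centred on their medians, 1137 genes were higher and 285 lower at unadjusted limma P, in place of 157 and 1010, and of the members Notch1 was then lower and Hes1 higher. In bulk tissue, fewer cells of a type and less RNA per cell cannot be told apart.

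**Figure D2:**
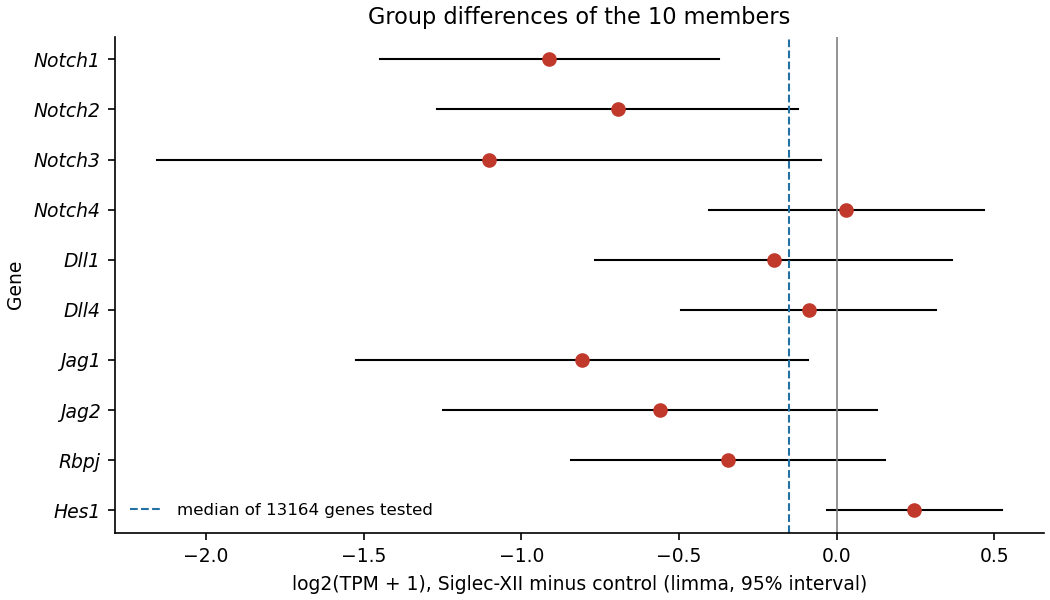
Difference in log2(TPM + 1), Siglec-XII minus Control, for each member with its 95% interval from limma; the dashed line is the median of the 13164 genes tested (-0.15). Intervals of Notch1, Notch2, Notch3 and Jag1 lie below 0, and Hes1 has the highest value at 0.25; with each sample centred on its median, Dll1 and Dll4 turn above 0.

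Notch1, the main receptor of crypt progenitors, measured 6.22, 6.88, 5.10 and 4.62 TPM in Control samples 1 to 4. In Siglec-XII samples 1 to 4 it measured 4.18, 3.14, 1.81 and 1.59 TPM. Every Siglec-XII sample lay below every Control sample, and samples 3 and 4 lay lowest. Groups that do not overlap in this direction were seen for 1 of 10 members and for 4.06% of all genes tested, and in the other direction for 0 members and 1.05%. The log2 difference was -0.91 ± 0.24 (SE; 95% interval -1.45 to -0.37), or -0.76 relative to the median gene, with a limma adjusted P of 0.515. It stayed below 0 in all 17 alternatives, from -1.15 with a pseudocount of 0.1 to -0.52 with Siglec-XII 3 and 4 both left out, while its adjusted limma P ranged from 0.192 to 0.991.

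Notch2, which acts beside Notch1 in the crypt, measured 3.34, 1.82, 1.52 and 3.17 TPM in Control samples 1 to 4. Its Siglec-XII values were 1.46, 1.81, 0.630 and 0.659 TPM. The groups overlapped: Siglec-XII 2 fell between Control samples, and 3 of the 4 Siglec-XII samples lay under the lowest Control. Its log2 difference was -0.70 ± 0.25 (SE), or -0.54 relative to the median gene (limma adjusted P = 0.515). It was -0.36 without Siglec-XII 3 and 4, -0.29 with array weights and -1.10 with a pseudocount of 0.1.

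Notch3 varied more among the 8 samples than any other member, with an SD of 0.94 log2 units. It measured 6.31, 1.25, 0.456 and 3.34 TPM in Control samples 1 to 4 and 0.666, 1.14, 0.145 and 0.201 TPM in the Siglec-XII samples. Control 1 and Control 4 were high, and the other 2 Control samples fell in or near the range of Siglec-XII 1 and 2. Between groups it differed by -1.10 ± 0.47 log2 units (SE), or -0.95 relative to the median gene (limma adjusted P = 0.515). It was -0.70 without Control 1, -0.48 with array weights and -1.97 with a pseudocount of 0.1.

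Notch4, the receptor known from endothelium, overlapped between the groups. It measured 1.70, 2.76, 3.12 and 2.37 TPM in Control and 2.83, 3.24, 2.56 and 1.66 TPM in Siglec-XII samples 1 to 4. Its difference was 0.031 ± 0.19 log2 units (SE; 95% interval -0.40 to 0.47; limma adjusted P = 0.942), and its sign turned in 4 of 17 alternatives. It stood at 0.24 with median centring, 0.23 with quantile normalization and 0.18 with array weights, and at -0.25 without the 3 samples highest in squamous genes. That set (Control 1, Control 4 and Siglec-XII 2) was chosen after the data were seen, and leaves Control 2 and 3 against Siglec-XII 1, 3 and 4.

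The make-up of the receptor pool therefore differed among samples. The 4 receptors summed to 17.6, 12.7, 10.2 and 13.5 TPM in Control samples 1 to 4 and to 9.14, 9.33, 5.14 and 4.11 TPM in Siglec-XII samples 1 to 4, without overlap. Single genes did not overlap in this direction in 4.06% of those tested. The sum repeats the receptor values given above and adds no separate result. Notch4 held 9.67%, 21.7%, 30.6% and 17.5% of that sum in the Control samples. In the Siglec-XII samples it held 31.0%, 34.7%, 49.8% and 40.3%, each above every Control sample, though 31.0% lay close to the highest Control share of 30.6%. The TPM of Notch4 overlapped between the groups, so its larger share reflects the smaller sum. The share of Notch3 was 35.9% in Control 1 and 24.8% in Control 4, and between 2.81% and 12.2% in the other 6 samples. Notch1 held 43.5 ± 10.1% in Control and 38.3 ± 5.39% in Siglec-XII (SD, n = 4). Shares were described without a test.

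**Figure D3:**
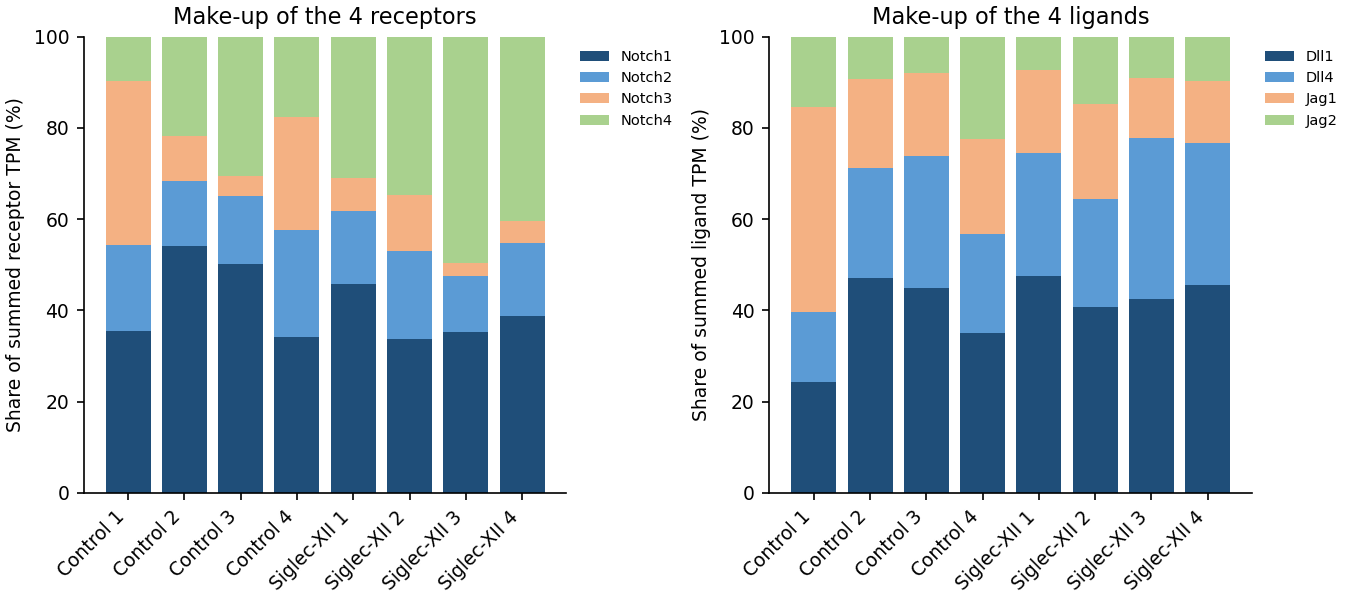
Percent of the summed TPM of the 4 receptors (left) and of the 4 ligands (right) held by each gene in each of the 8 samples; bars are stacked to 100%. Notch4 takes 31.0% to 49.8% of receptor TPM in the Siglec-XII samples and 9.67% to 30.6% in Control, and Control 1 stands out by a Jag1 share of 45.1% of ligand TPM.

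Stretches upstream of the receptor genes are shown because 3 of the 4 receptors were lower at unadjusted P and 1 was not. They are RefSeq sequences on GRCm38.p6, read 5′ to 3′ on the strand of the gene and ended before the first exon annotated by GENCODE M21. Capitals mark GGGCGG or its reverse complement CCGCCC, the GC box bound by Sp family factors. Positions count back from the RefSeq start. The stretch of Notch1 lies on the minus strand at chr2:26503825-26503932, inside an intron of the longer gene model, and those of Notch2 (plus strand, chr3:98013428-98013526), Notch3 (minus strand, chr17:32166891-32167000) and Notch4 (plus strand, chr17:34564185-34564267) lie in no annotated gene.
Notch1: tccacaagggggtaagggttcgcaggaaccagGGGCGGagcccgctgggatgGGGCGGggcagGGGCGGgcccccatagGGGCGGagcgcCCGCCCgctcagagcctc
Notch2: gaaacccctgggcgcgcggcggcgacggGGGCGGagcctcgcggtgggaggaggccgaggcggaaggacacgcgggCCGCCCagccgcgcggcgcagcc
Notch3: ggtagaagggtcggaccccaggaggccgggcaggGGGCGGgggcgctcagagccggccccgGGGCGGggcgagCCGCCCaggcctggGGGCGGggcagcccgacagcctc
Notch4: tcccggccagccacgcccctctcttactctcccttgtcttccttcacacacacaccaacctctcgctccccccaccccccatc
In the 250 bases before the start, the GC box occurred 5 times for Notch1, 5 times for Notch2 and 4 times for Notch3, and it was not found for Notch4. It was also found for Dll4 (2) and Jag2 (5), and not for Dll1, Jag1 or Rbpj. Of 32851 promoters in the table, 32.7% held it in the same 250 bases. That share is not matched for base content. These 250 bases were 66.0%, 72.0% and 68.8% G or C for Notch1, Notch2 and Notch3 and 58.4% for Notch4, against a median of 52.4% for all promoters. A match describes the letters only.

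Among the ligands, Jag1 had the lowest difference between Siglec-XII and Control. Jag1, which signals in several epithelia and in vessel walls, measured 9.04, 4.39, 3.20 and 4.68 TPM in Control samples 1 to 4. Its Siglec-XII values were 3.53, 3.72, 1.48 and 1.58 TPM. Control 1 lay far above the rest, Siglec-XII 1 and 2 lay within the Control range, and Siglec-XII 3 and 4 lay below it. Between groups the log2 difference was -0.81 ± 0.32 (SE), or -0.66 relative to the median gene (limma adjusted P = 0.515), and it ranged from -1.03 with a pseudocount of 0.1 to -0.26 with array weights, with -0.56 without Control 1 and -0.37 without Siglec-XII 3 and 4.

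Jag2, the second Jagged ligand, measured 3.06, 2.07, 1.40 and 5.09 TPM in Control and 1.45, 2.68, 1.03 and 1.10 TPM in Siglec-XII samples 1 to 4. Control 4, Control 1 and Siglec-XII 2 were the highest, and the groups overlapped. The log2 difference was -0.56 ± 0.30 (SE), or -0.41 relative to the median gene (limma adjusted P = 0.515). It was -0.32 without Control 4, -0.29 without Siglec-XII 3 and 4, -0.35 with median centring and -0.17 with array weights. In the other direction it was -0.77 without Control 3 and -0.75 without Siglec-XII 2, where Jag2 passed the unadjusted P, and -0.80 with a pseudocount of 0.1.

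Both Delta ligands of the crypt overlapped between the groups. Dll1 measured between 4.85 and 10.6 TPM in Control and between 4.78 and 9.25 TPM in Siglec-XII, a log2 difference of -0.20 ± 0.25 (SE; limma adjusted P = 0.702). Dll4 measured between 3.09 and 5.48 TPM in Control and between 3.56 and 5.21 TPM in Siglec-XII, a log2 difference of -0.089 ± 0.18 (SE; limma adjusted P = 0.812). Both differences turned above 0 with median centring (0.013 and 0.12) and with quantile normalization (0.036 and 0.16), and without Siglec-XII 3 and 4 (0.11 and 0.044). Left-out samples moved them further. Dll1 stood at -0.38 without Control 1, -0.35 without Siglec-XII 1 and -0.50 without the 3 samples highest in squamous genes, against -0.053 without Control 2. Dll4 stood at -0.24 without Control 1 and -0.28 without the 3 samples highest in squamous genes. The ligand sum ran from 17.6 to 22.5 TPM in Control and from 11.2 to 19.4 TPM in Siglec-XII, with Siglec-XII 3 and 4 lowest. Dll1 held the largest ligand share in all samples but Control 1, where Jag1 held 45.1% and Dll1 24.2%.

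Rbpj, through which all receptors act on DNA, measured 7.96, 11.2, 10.1 and 10.5 TPM in Control samples 1 to 4. It measured 10.6, 9.38, 6.43 and 4.95 TPM in Siglec-XII samples 1 to 4. Siglec-XII 1 and 2 lay within the Control range and Siglec-XII 3 and 4 below it. The log2 difference was -0.35 ± 0.22 (SE; limma adjusted P = 0.524), or -0.19 relative to the median gene. It was 0.016 without Siglec-XII 3 and 4, -0.17 without Siglec-XII 4 and -0.13 with median centring, against -0.54 without the 3 samples highest in squamous genes and -0.49 without Siglec-XII 1, where Rbpj passed the unadjusted P. The letters TGGGAA (or TTCCCA on the other strand), the core that Rbpj binds, were searched in the 250 bases upstream of the 9 members with an entry in the promoter table. Hes1 had no entry. Rbpj itself was the 1 member that held them, beside 21.6% of all promoters. The part before the first annotated exon at its upstream RefSeq start (plus strand, chr5:53590096-53590213, intronic in longer Rbpj models) is shown because it carries the pathway's own DNA motif, in capitals.
Rbpj: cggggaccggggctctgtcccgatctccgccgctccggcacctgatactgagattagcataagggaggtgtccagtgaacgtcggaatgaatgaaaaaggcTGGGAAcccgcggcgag
The capitals begin 149 bases before the start, and a second copy, on the other strand, begins 65 bases before it.

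Hes1, the repressor through which Notch holds back secretory fate, was the member highest above the median gene. It measured 79.7, 99.0, 87.4 and 102 TPM in Control samples 1 to 4. Its Siglec-XII values were 124, 115, 108 and 91.1 TPM. Siglec-XII samples 1 to 3 lay above every Control sample and Siglec-XII 4 lay within the Control range. The log2 difference was 0.25 ± 0.12 (SE; 95% interval -0.03 to 0.52; limma adjusted P = 0.515), or 0.40 relative to the median gene. With each sample centred on its median it was 0.46, with a limma adjusted P of 0.253, and it was 0.38 without Siglec-XII 3 and 4 and 0.18 without Control 1. Hes1 (1468 bases) belongs to the transcripts of 1 to 2 kb, whose median difference was -0.08, against -0.15 for all genes. The part of length in the centred value was not tested. The Hes1 difference was above 0 in all 18 alternatives, with adjusted limma P values from 0.215 to 0.991. At unadjusted limma P it was higher in 5 of them. These were quantile normalization, median centring, array weights, and the fits without Siglec-XII 4 and without Siglec-XII 3 and 4.

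Of the 81 other genes listed for the pathway and its output, 60 were tested and none passed an adjusted limma P of 0.05. At unadjusted limma P, 5 were lower and 1 was higher, beside 7.67% and 1.19% of all genes. With median centring 2 were lower and 7 higher, beside 2.16% and 8.64% of all genes. With quantile normalization 3 were lower and 5 higher, beside 3.1% and 5.35%. The number of 6 was 2 without Control 2, 16 without Siglec-XII 1, 12 without Siglec-XII 2, and 1 without Siglec-XII 3 or Siglec-XII 4. Of these, 1, 14, 9, 1 and 1 were lower, beside 5.3%, 16.6%, 10.8%, 2.93% and 3.18% of all genes. The share of all genes higher lay between 0.737% and 1.38% in these settings. The median difference over the 60 genes was -0.20, close to the -0.15 of all genes.

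The other targets gave the lowest median of these lists, -0.78 over 3 genes tested. Myc, a growth regulator and direct Notch target in several cell types, measured 31.5, 28.5, 18.1 and 24.4 TPM in Control samples 1 to 4. In Siglec-XII samples 1 to 4 it measured 15.7, 16.1, 10.3 and 8.49 TPM, each below every Control sample. Groups that do not overlap in this direction were seen for 1 of the 60 pathway genes tested and for 4.06% of all genes. The log2 difference of Myc was -0.98 ± 0.24 (SE; limma adjusted P = 0.515), and ranged from -1.14 without Control 3 to -0.61 with array weights.

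Nrarp, a target that feeds back to inhibit the Notch complex, measured 34.0, 17.9, 12.3 and 19.4 TPM in Control and 15.0, 14.6, 9.19 and 7.19 TPM in Siglec-XII samples 1 to 4. The groups overlapped, with Control 1 highest and Siglec-XII 3 and 4 lowest (log2 difference -0.78 ± 0.32 SE, limma adjusted P = 0.515; range -0.99 without Control 3 to -0.29 with array weights). Cyclin D1 (Ccnd1), which drives entry into the cell cycle, differed by -0.67 ± 0.27 (SE, limma adjusted P = 0.515). It measured from 20.4 to 28.8 TPM in Control and from 8.56 to 23.9 TPM in Siglec-XII. Its difference was -0.87 without Siglec-XII 1, -0.41 without Siglec-XII 4 and -0.21 without Siglec-XII 3 and 4. Hes5, Hes7, Hey1, Hey2, Heyl and the stem cell gene Olfm4 did not pass the filter.

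Of the regulators of secretory fate, downstream of Hes1, 5 were tested, 4 of them were below 0, and the median difference was -0.28. Atoh1, the secretory master regulator, measured 27.4, 39.1, 36.2 and 30.1 TPM in Control and 33.9, 31.0, 22.2 and 22.4 TPM in Siglec-XII samples 1 to 4 (log2 difference -0.28 ± 0.17 SE, limma adjusted P = 0.522). Spdef, which matures goblet cells, differed by -0.29 ± 0.15 (SE, limma adjusted P = 0.515). With median centring Atoh1 stood at -0.066 and Spdef at -0.074, and without Siglec-XII 3 and 4 Atoh1 stood at -0.020. In the other direction, Atoh1 was lower at unadjusted P, at -0.53, without the 3 samples highest in squamous genes, and Spdef was lower, at -0.38, without Control 3. Sox4, a factor of early secretory progenitors, differed by -0.77 ± 0.28 (SE, limma adjusted P = 0.515). Its lowest values were 5.03 and 3.21 TPM in Siglec-XII 3 and 4, and its difference was -0.30 without them and -1.01 without Siglec-XII 1. Gfi1, a repressor in the secretory lineage, was the 1 above 0, at 0.17 ± 0.16 (SE, limma adjusted P = 0.607), and it was higher at unadjusted P with median centring. Gfi1b, Neurog3, Neurod1 and Pou2f3 did not pass the filter.

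Products of mature cells were read from 2 lists. Over the 7 goblet cell products the median difference was 0.13, 5 of 7 were above 0, and 6 of 7 lay above the median gene. That median was 0.345 with median centring, 0.061 with quantile normalization and 0.032 without Siglec-XII 3 and 4. Spink4, a secreted goblet cell peptide, measured 1140, 1500, 1450 and 1450 TPM in Control and 1760, 1450, 2360 and 1950 TPM in Siglec-XII samples 1 to 4 (log2 difference 0.43 ± 0.16 SE, limma adjusted P = 0.515). The Spink4 difference ranged from 0.089 with array weights to 0.64 with median centring. Zg16 differed by 0.31 ± 0.14 (SE, limma adjusted P = 0.515), by 0.036 with quantile normalization and by 0.52 with median centring. Transcripts of Spink4 (397 bases) and Zg16 (723 bases) are under 1 kb, a class whose median difference was -0.04, against -0.15 for all genes. Short genes thus lie above the median gene and rise with median centring as a class, and the part of length was not tested. Muc2, the main secreted mucin, differed by -0.18 ± 0.29 (SE, limma adjusted P = 0.765), and was lower at unadjusted P, at -0.61, without the 3 samples highest in squamous genes, where Spink4 (0.45) and Zg16 (0.42) were higher. Without Control 3 Muc2 stood at 0.034. The summed TPM of the list was 12600, 13300, 11200 and 12100 in Control and 12800, 13000, 15600 and 17100 in Siglec-XII samples 1 to 4. Over the 7 absorptive colonocyte genes the median difference was 0.025, that of the most abundant gene, Car1 (0.025 ± 0.15 SE, limma adjusted P = 0.940). The 2 with the smallest P were the chloride exchanger Slc26a3 (-0.20 ± 0.15 SE, limma adjusted P = 0.552) and the peptide hormone Guca2a (0.10 ± 0.15 SE, limma adjusted P = 0.746). The list median was 0.237 with median centring and -0.053 without Siglec-XII 3 and 4. Car1 ranged from -0.24 without the 3 samples highest in squamous genes to 0.24 with median centring, and Guca2a from -0.11 with array weights to 0.31 with median centring. Slc26a3 was lower at unadjusted P, at -0.33, without Siglec-XII 2, and stood at 0.081 with array weights.

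Among the cleavage enzymes, 8 of 9 tested were below 0, beside 78.1% of all genes, with a median of -0.10, and 6 of 9 lay above the median gene. The proteases that make the outer cut, Adam17 (-0.35 ± 0.17 SE, limma adjusted P = 0.515) and Adam10 (-0.26 ± 0.17 SE, limma adjusted P = 0.522), had the smallest P, and the gamma-secretase subunit Psenen was the most abundant at a mean of 194 TPM with a difference of -0.025. Adam17 ranged from -0.45 without Siglec-XII 2 to -0.093 without Siglec-XII 3 and 4, and was lower at unadjusted P without Siglec-XII 1 or Siglec-XII 2. Adam10 ranged from -0.42 without the 3 samples highest in squamous genes to 0.0055 without Siglec-XII 3 and 4, and was lower at unadjusted P without Siglec-XII 1. Psenen ranged from -0.062 to 0.19. All 7 glycosyltransferases tested were below 0 and 4 lay below the median gene, with a median of -0.20, led in level by Rfng (-0.25 ± 0.15 SE, limma adjusted P = 0.516), and Lfng, which tunes receptors toward Delta ligands, differed by -0.20 ± 0.13 (SE, limma adjusted P = 0.538). Lfng was lower at unadjusted P with array weights (-0.37) and stood at 0.014 with median centring, and Rfng ranged from -0.38 without the 3 samples highest in squamous genes to -0.011 without Siglec-XII 3 and 4. With median centring the median of the glycosyltransferases was 0.014 and that of the cleavage enzymes 0.11, and without the 3 samples highest in squamous genes they were -0.34 and -0.31.

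The nuclear partners and the regulators of turnover had lower medians. All 5 coactivators tested were below the median gene (median -0.32). The smallest P values were those of the splicing-linked Snw1, the most abundant, at -0.20 ± 0.11 (SE, limma adjusted P = 0.515) and of Maml3, a Mastermind coactivator, at -0.36 ± 0.23 (SE, limma adjusted P = 0.532). Snw1 was lower at unadjusted P without Siglec-XII 2 (-0.28) and stood at 0.0082 with median centring, and Maml3 ranged from -0.57 without the 3 samples highest in squamous genes to -0.0035 without Siglec-XII 3 and 4. Among the 6 corepressors tested (median -0.28), Rita1, which carries Rbpj out of the nucleus, differed by 0.28 ± 0.13 (SE, limma adjusted P = 0.515). It was higher at unadjusted P with median centring (0.50), quantile normalization (0.49), no filter, no moderation and without Siglec-XII 2 (0.38), and stood at 0.11 with array weights. Hdac1, a histone deacetylase, differed by -0.25 ± 0.12 (SE, limma adjusted P = 0.515), and the most abundant, Ctbp1, by -0.20 ± 0.18 (SE, limma adjusted P = 0.601). Hdac1 was lower at unadjusted P without Siglec-XII 1 (-0.33) and stood at -0.034 with median centring, and Ctbp1 ranged from -0.37 without the 3 samples highest in squamous genes to 0.052 without Siglec-XII 3 and 4. All 7 genes of inhibition and turnover lay below the median gene (median -0.32). They included the Deltex genes Dtx3 (-0.33 ± 0.14 SE, limma adjusted P = 0.515) and Dtx2 (-0.34 ± 0.16 SE, limma adjusted P = 0.515) and the most abundant, Numb, an inhibitor of Notch that is handed to one daughter cell (-0.29 ± 0.23 SE, limma adjusted P = 0.574). Dtx3, lower at unadjusted P, lost that call in 14 of the 17 alternatives that tested it and ranged from -0.52 with a pseudocount of 0.1 to -0.12 with median centring. Dtx2 was lower at unadjusted P with array weights and without Control 1 or Siglec-XII 1, and ranged from -0.42 to -0.10. With Siglec-XII 3 and 4 left out, the medians were 0.051 for coactivators, 0.022 for corepressors and 0.058 for inhibition and turnover. Without the 3 samples highest in squamous genes they were -0.57, -0.51 and -0.46, where the median over all genes was -0.24, and Numb (-0.64) and the Deltex gene Dtx3l (-0.77) were lower at unadjusted P. Medians over all genes also fell with transcript length, from -0.08 at 1 to 2 kb to -0.145, -0.22 and -0.31 in the longer classes described below. Maml3 (8288 bases) belongs to the longest class, and Snw1 (5083) and Dtx2 (5420) to that from 4 to 8 kb. Hdac1 (2038), Numb (3549) and Ctbp1 (3595) lie from 2 to 4 kb, and Rita1 (1668) and Dtx3 (1994) below. The part of length in these list medians was not tested.

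The 3 tested ligases that prepare ligands on the sending cell were Mib1 (-0.41 ± 0.23 SE, limma adjusted P = 0.515), Mib2 (-0.12 ± 0.14 SE, limma adjusted P = 0.674) and Neurl1b (0.029 ± 0.29 SE, limma adjusted P = 0.964). Mib1, the most abundant of them, measured from 9.46 to 10.7 TPM in Control, 11.0 and 9.43 TPM in Siglec-XII 1 and 2, and 6.44 and 4.61 TPM in Siglec-XII 3 and 4, and its difference was -0.015 without these 2 and -0.58, lower at unadjusted P, without Siglec-XII 1. Mib2 ranged from -0.20 without Siglec-XII 1 to 0.10 with quantile normalization, and Neurl1b from -0.28 without Control 1 to 0.27 with quantile normalization. Of the other ligands only Dlk2 was tested, at -0.25 ± 0.27 (SE, limma adjusted P = 0.664). It stood at -0.44 without Control 3 and -0.060 without Control 4, and its sign turned with array weights (0.006) and without the 3 samples highest in squamous genes (0.145). It was highest in Control 4 and Control 1, at 2.78 and 2.42 TPM, and Dll3, Dlk1 and Dner did not pass the filter.

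Genes with the profile most like a member were sought over all 8 samples, by the root mean square difference of log2(TPM + 1) after each gene was centred on its own mean. This was done for the 3 most variable members, Notch3, Jag1 and Notch1 (SD 0.94, 0.65 and 0.59 log2 units). Fam84a (0.08 log2 units), Rnf144b (0.09) and Sema3f (0.12) were closest to Notch3. Meis1 (0.07), Nrarp (0.11) and Ckap4 (0.13) were closest to Jag1. Sox4 (0.15), AU020206 (0.15) and Pprc1 (0.16) were closest to Notch1. Fam84a, for example, measured 23.5, 7.55, 4.03 and 12.6 TPM in Control and 4.34, 6.20, 2.91 and 3.17 TPM in Siglec-XII samples 1 to 4, with Control 1 and Control 4 high as for Notch3. These genes were picked for their likeness in the same 8 samples, so a shared pattern follows from the choice.

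Control 1 and Control 4 were the 2 samples highest in Notch2, Notch3, Jag1 and Jag2. They were also highest in genes of stratified squamous epithelium, a list chosen after these values were seen. The 14 genes summed to 23100, 2520, 2260 and 13400 TPM in Control samples 1 to 4 and to 2770, 6650, 1240 and 1590 TPM in Siglec-XII samples 1 to 4, a range of 18.7-fold. Krt14, the basal keratin of squamous epithelium, was the most abundant, at 5670, 276, 251 and 3250 TPM in Control and 258, 1650, 120 and 157 TPM in Siglec-XII. None of the 14 was at 0 in every sample, all 14 had a difference below 0, beside 78.1% of all genes, 1 (Dsg3) was lower at unadjusted limma P, beside 7.67%, and the median difference was -1.15. Control 1, Control 4 and Siglec-XII 2 held the highest sums and Siglec-XII 3 and 4 the lowest, and Jag2 had the same samples at both ends. With the first 3 of these left out, a choice made after the data were seen, the log2 difference was -0.46 for Notch3, -0.63 for Jag1, -0.31 for Jag2, -0.50 for Notch2, -1.05 for Notch1 and -0.25 for Notch4, and Notch1 was the 1 member left at unadjusted P (limma adjusted P = 0.491). Control 1 and Control 4 are also the samples highest in Notch2, Notch3, Jag1 and Jag2. Leaving them out therefore lowers the Control means of these genes by choice and is no test of the squamous genes. The fit then compared Control 2 and 3 with Siglec-XII 1, 3 and 4. Of all samples, Siglec-XII 3 and 4 had the lowest medians over genes, at 3.46 and 3.31 log2 units. The part of the squamous genes in the differences of the members was not tested.

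**Figure D4:**
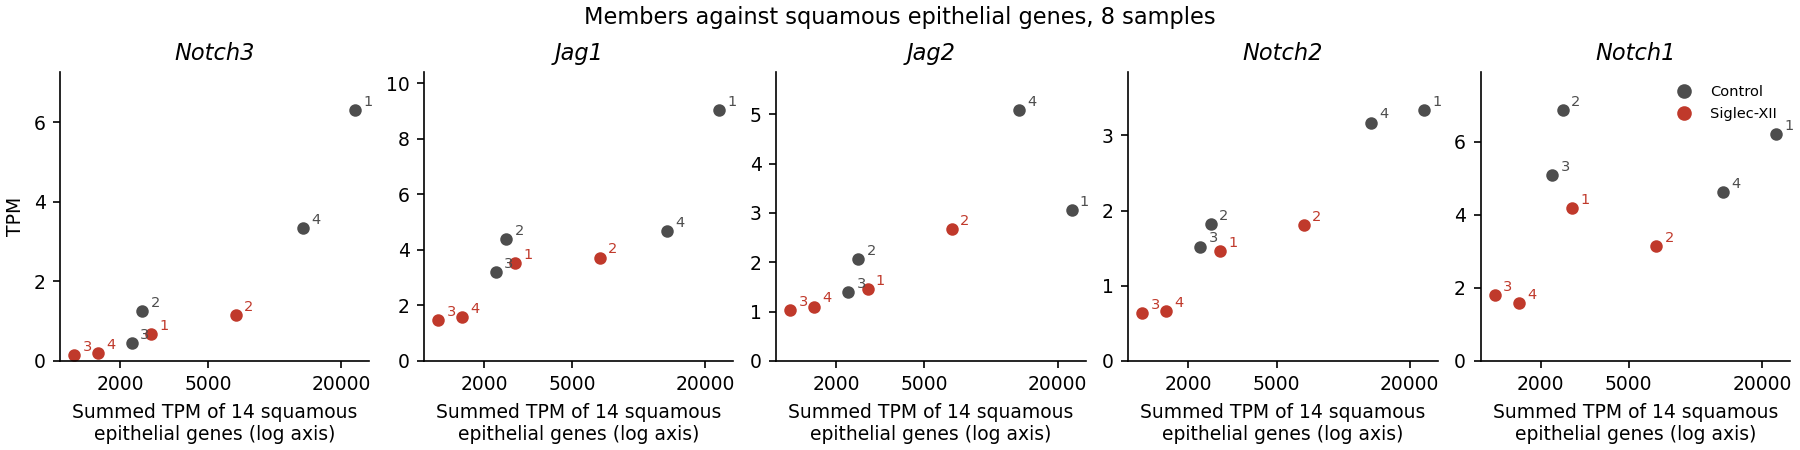
TPM of Notch3, Jag1, Jag2, Notch2 and Notch1 (vertical axes) against the summed TPM of 14 genes of stratified squamous epithelium (log axis) in 4 Control (grey) and 4 Siglec-XII samples (red), numbered by replicate. Notch3 is highest where the sum is highest (Control 1, 23100 TPM) and lowest where it is lowest (Siglec-XII 3, 1240 TPM), while Notch1 in Control 2 and 3 is high at low sums.

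Markers of other cell types were read for the same samples. All 9 smooth muscle genes tested had a difference below the median gene (median -0.67), 5 were lower at unadjusted limma P, beside 7.67% of all genes, and 4 lay below Control without overlap, beside 4.06%. They summed to 887, 652, 1040 and 842 TPM in Control and to 664, 586, 671 and 313 TPM in Siglec-XII samples 1 to 4, and Tagln was the most abundant (-0.53 ± 0.24 SE, limma adjusted P = 0.515). Their part in the Notch3 difference was not tested. For the endothelium, 3 of 11 markers were tested and 1, Pecam1, was lower at unadjusted P, the sums ran from 5.22 to 10.2 TPM in Control and from 5.03 to 6.73 TPM in Siglec-XII, and Egfl7 was the most abundant at a mean of 1.95 TPM. The 4 arterial markers were led by Efnb2 (mean 26.0 TPM, difference -0.10), the 6 mural cell markers by Kcnj8 (mean 2.70 TPM, difference 0.40), and the 6 fibroblast markers by Dcn, which reached 57.1 TPM in Siglec-XII 4. Of the other mural markers, Pdgfrb stood at -0.090, and Rgs5, which did not pass the filter, averaged 1.57 TPM in Control and 0.849 TPM in Siglec-XII. None of the 6 leukocyte markers passed the filter. They summed to 6.25, 4.03, 2.26 and 6.20 TPM in Control and to 1.90, 2.08, 1.86 and 1.63 TPM in Siglec-XII samples 1 to 4, each Siglec-XII sample below every Control. Itgam, the most abundant, measured 3.39, 2.53, 0.360 and 4.47 TPM in Control and 0.292, 0.812, 0.358 and 0.186 TPM in Siglec-XII. It overlapped between the groups and held most of the sum in Control 1, 2 and 4. Ptprc did not overlap, at 0.574 TPM or more in Control and 0.499 TPM or less in Siglec-XII, beside 4.06% of genes tested. The other markers overlapped, with Cd3e highest in Siglec-XII 1 and Adgre1 in Siglec-XII 3. The part of leukocytes in the differences of the members was not tested. The neural, adipocyte and erythroid lists were led by Gfap (mean 1.47 TPM, difference -0.23), Fabp4 (10.9 TPM, -0.52) and Hbb-bs (67.1 TPM, 1.35). With 2 genes tested in each, the median differences were -0.37, -0.24 and 1.19. Hbb-bs ran from 4.02 to 180 TPM in Control and from 25.4 to 124 TPM in Siglec-XII. No gene of these marker lists passed an adjusted limma P of 0.05.

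Transcript length moved with the samples as well. For genes whose longest GENCODE M21 transcript was over 8 kb (598 genes), the median difference between groups was -0.31, against -0.04 for genes under 1 kb (1448 genes). Relative to the Control mean, the median gene over 8 kb stood at -0.27 in Control 1, -0.56 in Siglec-XII 3 and -0.71 in Siglec-XII 4, and between -0.02 and 0.13 in the other 5 samples. Notch1, Notch2 and Notch3 belong to this class, with transcripts of 9488, 10500 and 8016 bases, and their differences of -0.91, -0.70 and -1.10 compare with its -0.31. Notch4 (6591 bases), Jag1 (5612), Jag2 (5106) and Rbpj (5485) belong to the class from 4 to 8 kb, whose median was -0.22. Hes1, at 1468 bases, belongs to the class from 1 to 2 kb, whose median was -0.08. The part of length in the differences was not tested.

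**Figure D5:**
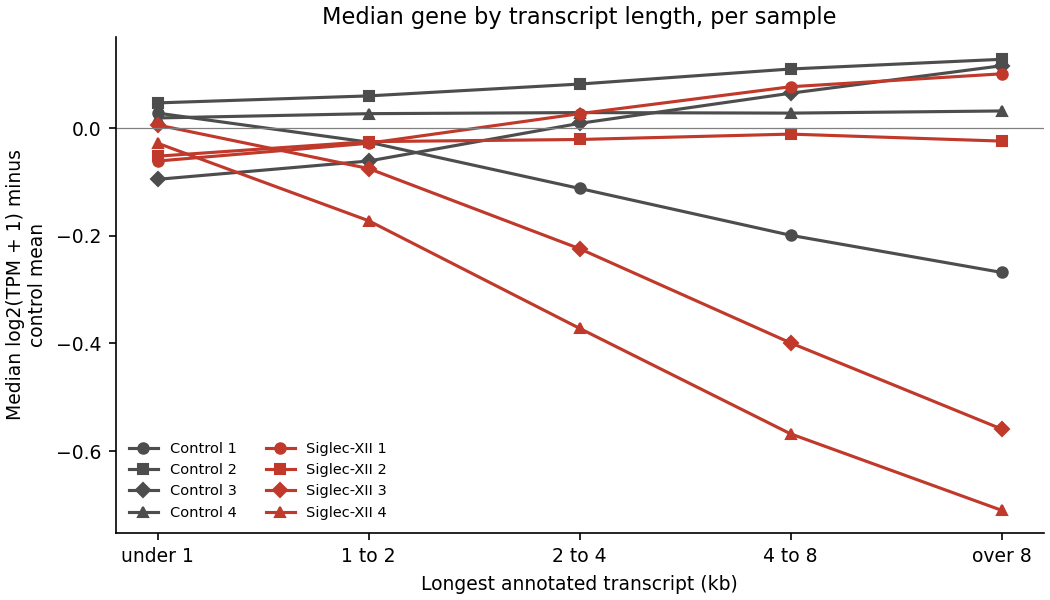
Median over genes of log2(TPM + 1) minus the Control mean (vertical axis) by longest annotated transcript (horizontal axis, kb) for each Control (grey) and Siglec-XII sample (red). Below 1 kb the samples lie between -0.095 and 0.047, and above 8 kb Siglec-XII 3 and 4 stand at -0.56 and -0.71 and Control 1 at -0.27.

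In the genome the members are spread over 6 chromosomes on GRCm38 (GENCODE M21). Notch1 lies at chr2:26457903-26516663 (minus strand), Dll4 at chr2:119325784-119335962 (plus) and Jag1 at chr2:137081456-137116644 (minus). Notch2 lies at chr3:98013527-98150361 (plus), Rbpj at chr5:53466152-53657362 (plus) and Jag2 at chr12:112907819-112929776 (minus). Hes1 lies at chr16:30064384-30067796 (plus), Dll1 at chr17:15367354-15376872 (minus), Notch3 at chr17:32120820-32166852 (minus) and Notch4 at chr17:34564268-34588503 (plus). On chromosome 2 the log2 differences were -0.91 for Notch1, -0.81 for Jag1 and -0.089 for Dll4, and on chromosome 17 they were -1.10 for Notch3, -0.20 for Dll1 and 0.031 for Notch4.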

How the data were processed

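RNA-Seq values of distal colon from 4 Control and 4 Siglec-XII samples were used, and groups follow the sample titles and treatment labels. The authors deposited log2(TPM + 1) for 52143 genes, with no scaling between samples. The submitters' processing notes name kallisto 0.45.0 and GRCm38, whereas the Methods name a human reference, and the genes carry mouse Ensembl identifiers. Library kits differ between the labels (total RNA) and the Methods (mRNA), and the latter mention 3 technical replicate libraries per sample. Where a symbol had several rows (718 further rows), the row with the highest mean was taken.

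The fit used R 4.3.3 and the package limma 3.58.1, with lmFit and then eBayes (trend on), for the 13164 genes that reached 1 TPM in 4 or more samples. P values were adjusted over all of these by Benjamini-Hochberg, and the threshold was 0.05. Fold changes on the log2(TPM + 1) scale understate the change of low genes. The fit was tested on simulated data. Other values were computed in Python 3.11.15 and figures drawn with matplotlib 3.10.9. Sequences came from RefSeq promoters (GRCm38.p6) and positions from GENCODE M21.

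The members and lists were chosen with earlier results of these data known. The genes named are the members, in each pathway list the 2 with the smallest P and the most abundant, in each marker list the most abundant and any at 0 throughout, and the 3 genes closest to each of the 3 most variable members. Pecam1, Dtx3l, Gfi1, Muc2, Neurl1b, Pdgfrb, Rgs5, Ptprc, Cd3e, Adgre1, the squamous list and the 5 genes past the threshold were named after their values were seen. Alternatives were a filter of 5 TPM or none, a pseudocount of 0.1, quantile normalization, median centring, array weights, no moderation, a replicate block, and samples left out singly or in sets. No protein sequences were used here.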

Additional observations from a re-analysis of the deposited data

Results flagged for a closer look

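Among 110 groups of 4 samples (55 measures in 2 groups each), 5 held a sample whose gap to its nearest neighbor exceeded Dixon's 95% critical share of the range of the group on the log2(TPM + 1) scale. Chance gives about 1 in 20 such groups. None of them was a group of a member. Control 1 was lowest for 3 genes. It measured 3.19 TPM for Maml3, where the other Control samples lay between 4.95 and 5.24, and 98.0 TPM for Ctbp1, where they lay between 128 and 136. For Spink4 it measured 1140 TPM, where they lay between 1450 and 1500. Control 2 was highest for Hdac1, at 70.1 TPM against 66.3 to 66.8 TPM. Control 3 was lowest for Dtx3, at 1.43 TPM against 1.93 to 1.97 TPM. The cause of these gaps was not tested.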

How the results depend on the processing

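None of the members and none of the other pathway genes passed an adjusted limma P of 0.05 under any of the 18 alternatives. The number of genes past it, 5, was 3 with no filter, 3 at a filter of 5 TPM, 3 without moderation, 18 with array weights and 2 without Siglec-XII 3 and 4. It ranged from 2 to 6 as each sample was left out. Not all were higher with array weights (12 of 18), without Control 3 (5 of 6), without Siglec-XII 1 (2 of 3) and without the 3 samples highest in squamous genes (3 of 4). All 4 members at unadjusted limma P were lower. With median centring, array weights, or without Siglec-XII 3 and 4, Notch1 was lower and Hes1 higher. The shares of all genes lower were then 2.16%, 10.8% and 1.57%, and those higher 8.64%, 3.28% and 1.18%. With quantile normalization 2 members were lower and Hes1 higher. Without moderation 2 members were lower, beside 6.08% of all genes. The number of members in either direction was 1 without the 3 samples highest in squamous genes, a choice made after the data were seen. It was 0 at a filter of 5 TPM, which left 3 members. It ranged from 1 to 5 as each sample was left out. The number of other pathway genes at unadjusted P, 6, was 1 without Siglec-XII 3 and 4 and ranged from 1 to 16 as each sample was left out. The share of all genes lower was 1.57% without Siglec-XII 3 and 4. It ranged from 2.93% to 16.6% as each sample was left out.

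Notch1, Notch2, Notch3, Jag1 and Jag2 stayed below 0 and Hes1 above 0 in every alternative that tested them. The log2 difference of Dll1 turned to 0.0355 with quantile normalization, 0.0131 with median centring and 0.11 without Siglec-XII 3 and 4. That of Dll4 turned to 0.16, 0.12 and 0.0445 under the same settings, and that of Rbpj to 0.0158 without Siglec-XII 3 and 4. That of Notch4 turned to -0.25 without the 3 samples highest in squamous genes, and ranged from -0.0861 to 0.17 as each sample was left out. The causes were not tested, beyond the smaller number of members at the higher filter.

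With the replicate number as a block, 4 genes passed the adjusted P, 0 of them members, and 4 members passed the unadjusted P. Deviations from the group means correlated over genes between same-numbered samples at -0.165, -0.204, 0.103 and -0.0025. Between differently numbered samples the values ran from -0.166 to 0.26, so no pairing by number was seen. The Methods describe controls as littermates, and nothing in the labels ties a sample to a litter. TPM keeps no depth, and 4 samples a group limit the precision.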
